A study of Homo sapiens with 12 samples.

Results

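CCL2 and VCAM1, the genes of a secreted chemokine and of a cell surface adhesion molecule, were followed on every array of a study that targeted PARK2, the gene of the ubiquitin ligase parkin, in glioma cells. The genes were chosen by rule from the gene annotation: all probe sets annotated to either gene were taken, 1 for CCL2 (216598_s_at) and 1 for VCAM1 (203868_s_at) among 16376 probe sets, or 2 of the 8545 genes tested. The pair was selected on its differences between the PARK2 siRNAs and scramble in earlier results of these data, which also showed the 3 SF539 levels of CCL2. The differences of both genes from scramble are therefore given as a description, with no test. SF539 and SNB19 are established cell lines, both labelled as glioblastoma (GBM), and each stands for a single line. Each line held 3 groups of 2 arrays, transfected with PARK2 siRNA#2, PARK2 siRNA#1 or scramble siRNA by a lipid reagent, and RNA was taken at 48 h. The level of PARK2 was not analysed here, so its knockdown is unchecked, and no untransfected cells were among the arrays.

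CCL2, also called MCP-1, is a chemokine that draws monocytes and macrophages through the receptor CCR2, and glioma cells are a known source of it. VCAM1 is an immunoglobulin-family protein that leukocytes bind through the integrin of ITGA4 and ITGB1, and it is best known from endothelium exposed to inflammatory cytokines. Both genes are classical targets of the transcription factor NF-kB, which TNF, interleukin 1 and Toll-like receptor signals release from its inhibitors.

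The VCAM1 promoter is shown because the NF-kB genes described below bear on it. The sequence is from RefSeq (GRCh38.p14, chr1:100719492-100719791, plus strand) and runs from 250 bases before the start of the gene to 50 bases after it. The CCL2 promoter was not used here. Capitals mark the matches to a loose form of the NF-kB site, GGG and CCC with any 4 bases between them, and the TATAAA on the strand of the gene.
VCAM1 promoter: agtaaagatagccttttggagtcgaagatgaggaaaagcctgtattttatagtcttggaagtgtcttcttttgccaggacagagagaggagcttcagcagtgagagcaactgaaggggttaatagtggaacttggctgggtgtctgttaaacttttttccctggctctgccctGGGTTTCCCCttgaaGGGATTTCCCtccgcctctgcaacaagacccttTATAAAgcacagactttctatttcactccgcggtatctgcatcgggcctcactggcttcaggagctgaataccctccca
Both strands were searched over all 35116 RefSeq promoters of this length. The loose NF-kB form matched at GGGTTTCCCC, bases -77 to -68 from the start, and at GGGATTTCCC, bases -62 to -53. At least 1 match was present in 17.8% of promoters and at least 2 in 4.17%. The second of these sites also fits the stricter NF-kB consensus, which 11.3% of promoters hold. TATAAA lies at bases -29 to -24, overlapping a reverse match at -31 to -26, with another reverse match at -205 to -200, and 11.5% of promoters hold the motif. A paired site for interferon regulatory factors, GAAA and GAAA with any 2 bases between them, matched on the reverse strand at bases -15 to -6 and is present in 3.57% of promoters. TGANTCA (AP-1), TTCNNNGAA (STAT) and GGGCGG (Sp1) had no match in this window and are present in 7.71%, 7.66% and 45.0% of promoters. A match is a stretch of letters and does not show that a factor binds there.

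Values are on the log2 scale as deposited, so a difference of 1 is a doubling. Array medians lay between 5.94 and 6.14 and lower quartiles between 3.93 and 4.02, a level with little signal over background. Replicate arrays correlated across probe sets with r from 0.991 to 0.998, a description, since probe sets are no replicates. Separate cultures are not stated for the replicates, so each p-value reflects the spread between these arrays alone, possibly a technical one, and precision is limited by the 12 arrays. The SF539 siRNA#2 pair stood apart, with a median SD between replicates of 0.132 over genes, against 0.0616 to 0.0852 in the other groups. Of the glioma and astrocyte markers, VIM and CD44 were bright in both lines. GFAP lay between 3.48 and 4.10 and FABP7 between 2.79 and 3.95 in SF539, near or below the lower quartiles, against 6.72 to 10.68 and 10.56 to 12.13 in SNB19. These markers moved with the siRNAs in SNB19, where GFAP, S100B and FABP7 were called higher and SOX2 lower, while CD44 was called lower in SF539. GFAP in SNB19 was at 10.24 and 10.68 with siRNA#2, 10.43 and 10.57 with siRNA#1, and 7.08 and 6.72 with scramble. The summed level of the 7 measured glioma markers in SNB19 was 70.07 and 70.30 with siRNA#2, 69.06 and 69.25 with siRNA#1, and 64.21 and 63.29 with scramble, and their part in the CCL2 and VCAM1 results was not tested. OLIG2 was below the lower quartile on all 12 arrays.

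CCL2 was higher with both PARK2 siRNAs than with scramble in both lines. In SF539 its level was 8.52 and 9.82 with siRNA#2, 5.86 and 6.35 with siRNA#1, and 4.08 and 4.39 with scramble. The 3 SF539 groups did not overlap. With 2 arrays per group this is weak evidence, and the share of all genes with such separated groups was not counted, here or below. The SF539 scramble arrays lay next to the lower quartile of the arrays, so the change is bounded by background there. In SNB19 the level was 9.54 and 9.59 with siRNA#2, 9.12 and 9.20 with siRNA#1, and 6.25 on both arrays with scramble. The SNB19 groups did not overlap either, and their replicates lay within 0.08 of each other. Against scramble the mean of both siRNAs was higher by 3.40 in SF539 (10.6-fold) and by 3.11 in SNB19 (8.65-fold). Each siRNA alone differed from scramble by 4.94 (siRNA#2) and 1.87 (siRNA#1) in SF539, and by 3.32 (siRNA#2) and 2.91 (siRNA#1) in SNB19. All genes that passed the limma test with a rise for the mean of both siRNAs made up 5.8% of those tested in SF539 and 15.5% in SNB19. A change in the number of cells that make a transcript and a change in its amount per cell cannot be told apart on these arrays.

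VCAM1 differed from scramble in opposite directions in the 2 lines by the mean of both siRNAs, in SNB19 mainly through siRNA#1. In SF539 its level was 7.76 and 9.30 with siRNA#2, 6.20 and 6.54 with siRNA#1, and 5.45 and 5.40 with scramble. These groups did not overlap, and all lay more than 1 above the lower quartiles of the arrays. In SNB19 the level was 8.33 and 8.10 with siRNA#2, 7.13 and 7.24 with siRNA#1, and 8.33 and 8.54 with scramble. The siRNA#1 arrays were the lowest, and 1 siRNA#2 array equalled a scramble array to 2 decimals, the other lying below both. The mean of both siRNAs minus scramble was 2.03 in SF539 (4.07-fold higher) and -0.74 in SNB19 (1.67-fold lower). Each siRNA alone differed from scramble by 3.11 (siRNA#2) and 0.94 (siRNA#1) in SF539, and by -0.22 (siRNA#2) and -1.25 (siRNA#1) in SNB19. Without both SF539 siRNA#2 arrays the SF539 values of CCL2 and VCAM1 are those of siRNA#1 alone, 1.87 and 0.94.

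**Figure D1:**
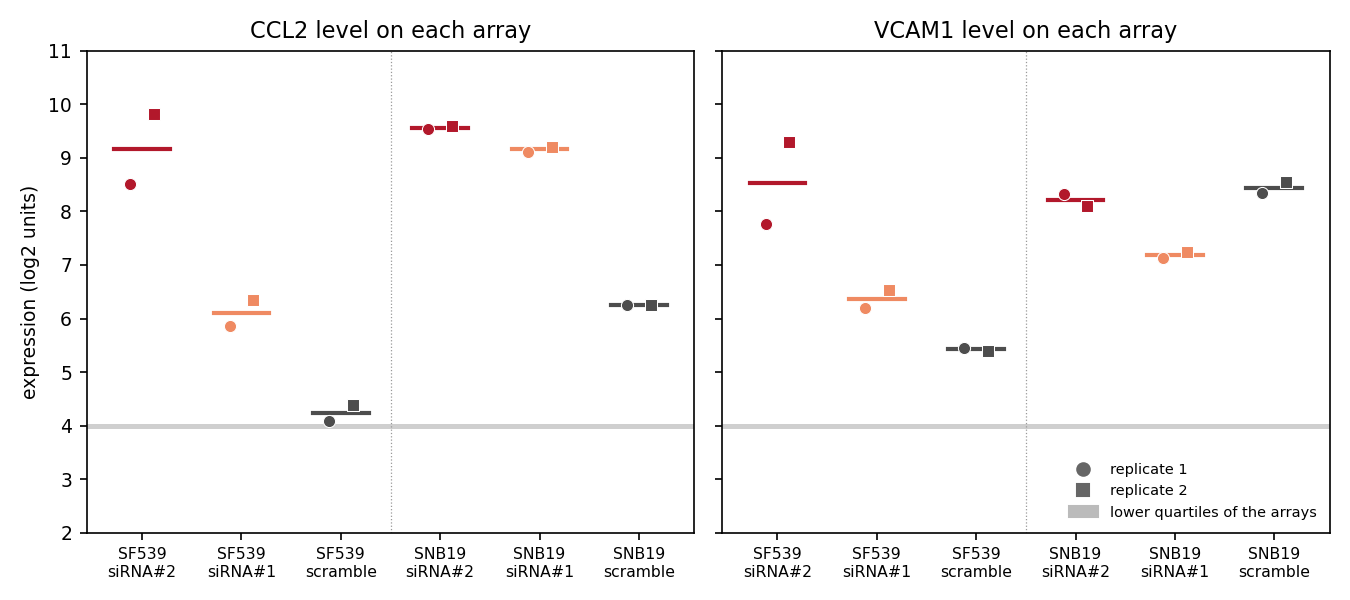
Expression of CCL2 (left) and VCAM1 (right) in log2 units on each of the 12 arrays, with a horizontal bar at the mean of each group of 2 and a grey band at the lower quartiles of the arrays. CCL2 is lowest with scramble in both lines, while VCAM1 is lowest with scramble in SF539 (5.40 and 5.45) and with siRNA#1 in SNB19 (7.13 and 7.24).

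Ordered by group mean, CCL2 stood at 9.57 ± 0.03 in SNB19 with siRNA#2, 9.17 ± 0.92 in SF539 with siRNA#2, 9.16 ± 0.06 in SNB19 with siRNA#1, 6.25 ± 0.0016 in SNB19 with scramble, 6.11 ± 0.35 in SF539 with siRNA#1 and 4.24 ± 0.22 in SF539 with scramble (SD, n = 2 each). The SF539 siRNA#2 arrays spanned both SNB19 siRNA groups, and the SNB19 scramble arrays lay within the range of SF539 siRNA#1, so neighbours in this order did not differ beyond their spread there. VCAM1 stood at 8.53 ± 1.08 in SF539 with siRNA#2, 8.44 ± 0.15 in SNB19 with scramble, 8.22 ± 0.16 in SNB19 with siRNA#2, 7.19 ± 0.08 in SNB19 with siRNA#1, 6.37 ± 0.24 in SF539 with siRNA#1 and 5.42 ± 0.03 in SF539 with scramble (SD, n = 2 each). The first 3 of these overlapped in range or lay within their spread, and the last 3 were apart.

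The siRNAs were then set against each other, which leaves out the scramble arrays but uses the siRNA arrays that took part in the choice of the genes. For CCL2 the SF539 levels had been seen in earlier results, and VCAM1 was chosen from differences that used these same siRNA arrays. The p-values and ranks of both genes in this contrast, and in the difference between lines below, are therefore not independent evidence. In SF539 both genes were higher with siRNA#2 than with siRNA#1. CCL2 was higher by 3.06 ± 0.33 (SE, 95% interval 2.32 to 3.81, 8.36-fold, limma adjusted p = 0.00497) and VCAM1 by 2.16 ± 0.37 (95% interval 1.33 to 2.996, 4.48-fold, limma adjusted p = 0.022). Both siRNA#2 arrays exceeded both siRNA#1 arrays for each gene. The errors use 1 spread shared by the 6 groups, a residual SD of 0.41 for CCL2 and 0.46 for VCAM1. With SF539 siRNA#2 the SD was 0.92 and 1.08, so these intervals, and those between lines below, may be too narrow. In this contrast 2.72% of all genes passed, 1.84% with a higher level for siRNA#2, and CCL2 and VCAM1 ranked 3 and 9 of 8545 by size. The CCL2 call was lost without SF539 siRNA#1 replicate 1 (2.82, limma adjusted p = 0.0878), and the VCAM1 call without SF539 siRNA#1 replicate 1 or 2 (1.99 and 2.33, limma adjusted p = 0.151 and 0.0944). With the 6 SF539 arrays fitted alone neither passed (limma adjusted p = 0.149 for CCL2 and 0.234 for VCAM1), nor did any of the 8545 genes.

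In SNB19 the difference between siRNA#2 and siRNA#1 did not pass for either gene. CCL2 differed by 0.41 ± 0.33 (95% interval -0.34 to 1.15, limma adjusted p = 0.583) and VCAM1 by 1.03 ± 0.37 (95% interval 0.20 to 1.87, limma adjusted p = 0.159), while 6.06% of all genes passed. The spread in this fit is shared with the SF539 siRNA#2 arrays, on which both genes varied most. Both siRNA#2 arrays lay above both siRNA#1 arrays for each gene. With the 6 SNB19 arrays fitted alone the same differences passed (limma adjusted p = 0.0128 for CCL2 and 0.00319 for VCAM1). The VCAM1 difference also passed without either SF539 siRNA#2 array (limma adjusted p = 0.00183).

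The difference between siRNA#2 and siRNA#1 was larger in SF539 than in SNB19 for CCL2, by 2.66 ± 0.47 (95% interval 1.60 to 3.71, limma adjusted p = 0.0169). For VCAM1 the difference between lines was 1.13 ± 0.53 (95% interval -0.05 to 2.31, limma adjusted p = 0.245), and 3.34% of all genes passed. The CCL2 call was lost without any 1 of the 4 SNB19 siRNA arrays (SNB19 siRNA#2 replicates 1 and 2, limma adjusted p = 0.0751 and 0.0696, and siRNA#1 replicates 1 and 2, limma adjusted p = 0.0678 and 0.0691) or without SF539 siRNA#1 replicate 1 (limma adjusted p = 0.0814). Without SF539 siRNA#2 replicate 1 the VCAM1 difference was 1.90 and passed (limma adjusted p = 0.000489).

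Averaged over all 6 arrays of a line, both genes were lower in SF539 than in SNB19. CCL2 averaged 6.50 in SF539 and 8.32 in SNB19, a difference of -1.82 ± 0.19 (limma adjusted p = 1.4e-05). VCAM1 averaged 6.77 in SF539 and 7.95 in SNB19, a difference of -1.17 ± 0.21 (limma adjusted p = 0.000787). The lines differed widely, with 60% of all genes called and 29% lower in SF539, so a call in this comparison is the common case. CCL2 had a lower group mean in SF539 than in SNB19 for each transfection, whereas the mean of VCAM1 with siRNA#2 was 8.53 in SF539 and 8.22 in SNB19.

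**Figure D2:**
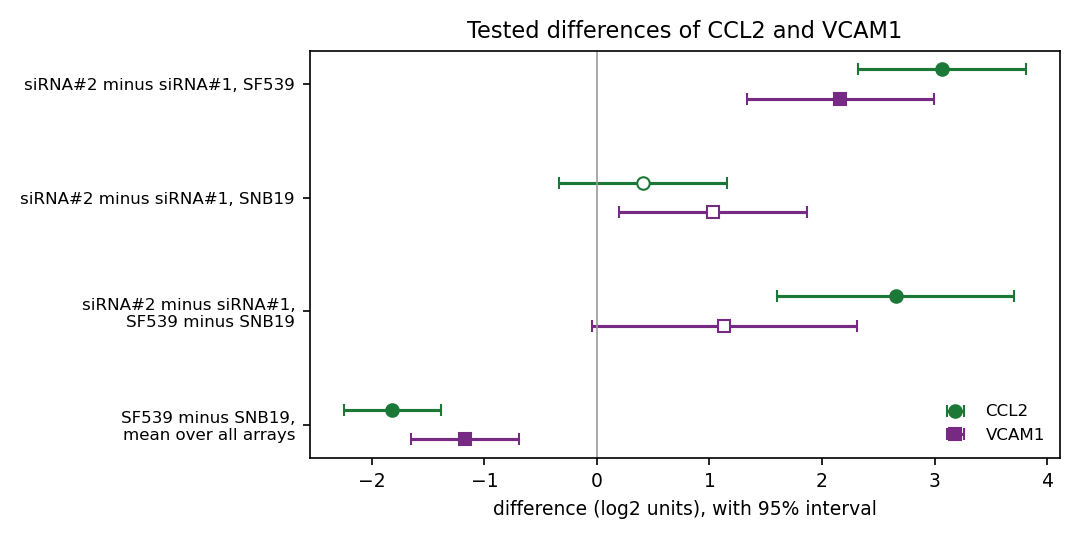
Differences of CCL2 (green circles) and VCAM1 (purple squares) in log2 units with 95% intervals from the limma fit, filled where the adjusted p is under 0.05. Both genes were higher with siRNA#2 than with siRNA#1 in SF539 (3.06 and 2.16), and both were lower in SF539 than in SNB19 over all arrays (-1.82 and -1.17).

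Replicates of both genes differed most with the siRNAs in SF539. Between the SF539 siRNA#2 arrays, replicate 2 exceeded replicate 1 by 1.30 for CCL2 and by 1.53 for VCAM1, differences that 101 and 59 of 8545 genes reached or passed. With SF539 siRNA#1 replicate 2 was higher by 0.49 and 0.34, and the SF539 scramble pair differed by 0.31 and 0.05. No SNB19 pair differed by more than 0.23 for either gene. The sum of smooth muscle and fibroblast markers was also highest on SF539 siRNA#2 replicate 2, though not every marker moved. The summed log2 level of the 5 measured markers was 31.82 and 42.41 with siRNA#2, 28.95 and 30.14 with siRNA#1, and 27.22 and 27.66 with scramble in SF539. In SNB19 it was 29.15 and 28.79 with siRNA#2, 24.45 and 24.21 with siRNA#1, and 24.17 and 23.83 with scramble. TAGLN, a smooth muscle actin-binding protein gene, was at 4.08 and 8.98 with SF539 siRNA#2, and PDGFRB, the platelet-derived growth factor receptor beta gene, at 8.55 and 9.70. Of these 5 markers 2, PDGFRB and COL1A1, rose in SF539 with the mean of both siRNAs and none was called in SNB19. Their part in the CCL2 and VCAM1 results was not tested.

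Leukocytes and endothelium, other cells that carry CCL2 or VCAM1, were checked by their markers. The summed level of 7 leukocyte markers ranged from 28.62 to 29.72 over all 12 arrays. PTPRC and LYZ were below the lower quartile on each, and CD14 and CD163 lay near or below it. CD3E lay between 4.87 and 5.43 and ITGAM between 4.92 and 5.31, above the lower quartile on each array. CSF1R, the colony stimulating factor receptor gene of macrophages, was the 1 leukocyte marker called, higher in SF539, at 5.95 and 5.86 with siRNA#2, 5.78 and 5.82 with siRNA#1, and 5.33 and 5.25 with scramble. Its part in the CCL2 and VCAM1 results was not tested. The sum of 7 endothelial markers ranged from 27.89 to 29.35 with siRNA#2, from 29.04 to 30.03 with siRNA#1 and from 29.45 to 29.72 with scramble in SF539. In SNB19 that sum was 30.44 to 30.73 with siRNA#2, 31.32 to 31.51 with siRNA#1 and 28.94 to 29.24 with scramble, and VWF and KDR were called higher with the siRNAs. TEK was below the lower quartile on all arrays, while PECAM1 (4.80 to 6.18), VWF (4.90 to 5.90) and CLDN5 (4.28 to 4.73) lay above it on each. KDR lay between 4.40 and 6.12 in SNB19 and between 3.72 and 4.13 in SF539. CDH5 lay between 3.09 and 4.37 and TIE1 between 3.49 and 4.185 over all arrays. The sum of 5 epithelial markers stayed between 23.94 and 25.70 over all arrays, with EPCAM and CDH1 below the lower quartile on each. KRT8 lay between 5.15 and 6.14 and KRT18 between 8.25 and 10.14, above it on each array. Single keratin genes were called in opposite directions, KRT19 higher and KRT18 lower in SNB19 and KRT8 lower in SF539. KRT19 in SNB19 was at 5.13 and 5.08 with siRNA#2, 5.72 and 5.45 with siRNA#1, and 3.86 and 4.32 with scramble.

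The direct partners of both proteins were named for their known role, outside the rule for named genes. CCR2, the receptor of CCL2, lay between 3.63 and 4.34 on all arrays, at the lower quartiles. ACKR1 and ACKR2, atypical receptors that take up CCL2, lay between 3.96 and 4.50 and between 4.00 and 4.26. ITGA4, the alpha chain that binds VCAM1, was at 8.25 and 8.15 with siRNA#2, 8.37 and 8.43 with siRNA#1 and 7.87 and 7.85 with scramble in SF539, a rise of 0.44 ± 0.07 (SE, limma adjusted p = 0.00469). In SNB19 ITGA4 changed by -0.05 against scramble, and it was lower with siRNA#2 (7.06 ± 0.05) than with siRNA#1 (7.99 ± 0.03, SD, n = 2 each), by a difference of -0.93 (limma adjusted p = 0.00018). Its partner chain gene ITGB1 rose by 0.67 in SNB19 (limma adjusted p = 0.00109) and changed by 0.15 in SF539 (limma adjusted p = 0.435). ADAM17, a protease that sheds VCAM1 from the surface, rose by 0.26 in SNB19 (limma adjusted p = 0.0455) and changed by 0.08 in SF539.

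CCL7 and CCL8 are monocyte chemoattractants whose genes lie in the same cluster as CCL2. Both were near or below the lower quartiles on 10 arrays. On the SF539 siRNA#2 arrays CCL7 was at 4.20 and 5.47 and CCL8 at 3.36 and 5.92, so only replicate 2 stood clearly above the lower quartiles. Neither passed for the mean of both siRNAs (limma adjusted p = 0.274 and 0.448 in SF539). ICAM1, the adhesion molecule that like VCAM1 is induced on activated endothelium, was at 6.98 and 7.66 with siRNA#2, 6.86 and 7.03 with siRNA#1 and 6.75 and 6.53 with scramble in SF539. Its change of 0.49 did not pass (limma adjusted p = 0.146), and in SNB19 it was -0.03. SELE, the endothelial selectin gene, stayed between 2.53 and 2.76 on all arrays.

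Lists of related genes were described for the mean of both PARK2 siRNAs against scramble, where 9.82% of all genes passed in SF539 (5.8% higher, 4.01% lower) and 32.8% in SNB19 (15.5% higher, 17.4% lower). Together the lists held 132 measured genes, of which 4 rose and 15 fell in SF539 and 14 rose and 34 fell in SNB19. In all 14.4% were called in SF539 and 36.4% in SNB19. The SF539 total of 19 was 9 without scramble replicate 1, 41 and 32 without siRNA#2 replicates 1 and 2, and 5 with the 6 SF539 arrays alone. With each array centred on its median the counts were 4 higher and 23 lower in SF539 and 20 higher and 29 lower in SNB19.

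None of 28 other chemokine ligands rose in either line in the limma test. Of these 28, 6 fell in SF539 and 5 fell in SNB19, with a median change of -0.08 in SF539 and 0.02 in SNB19 against -0.02 and -0.01 for all genes. The share called was 21.4% in SF539 against 9.82% of all genes, and 17.9% in SNB19 against 32.8%. The totals of both lines, counted in either direction, were larger without SF539 siRNA#2 replicate 1. Those totals were not split by direction, so whether any ligand rose there was not counted. At an unadjusted p under 0.05, 2 ligands were higher in SF539 and 1 in SNB19. CXCL10 and CXCL11, interferon-inducible attractants of T cells, changed by -1.87 and -2.41 in SF539 and by -4.23 and -2.51 in SNB19. With siRNA#1 and siRNA#2 in SNB19 CXCL10 averaged 3.25 and 3.72, and CXCL11 3.01 and 3.06. These means lay below the lower quartiles of the arrays, so the SNB19 sizes are bounded by background. CXCL8, a neutrophil attractant, changed by -1.55 and -1.41 in SF539 and SNB19. In SNB19 its difference from scramble was -0.43 with siRNA#2 and -2.40 with siRNA#1, and siRNA#2 exceeded siRNA#1 by 1.96 (limma adjusted p = 0.000145). CCL20 and CXCL3 fell in SF539, by 1.65 and 1.93, and CCL5, which attracts T cells and monocytes, fell in SNB19 by 3.45. CXCL10 was also higher with siRNA#2 than with siRNA#1 in SF539, at 5.91 and 7.18 against 3.94 and 4.86, by a difference of 2.14 (limma adjusted p = 0.0249). The CXCL3 call was lost without SF539 scramble replicate 1 (limma adjusted p = 0.0611) and with the SF539 arrays alone (limma adjusted p = 0.085).

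Chemokine receptors were called at 5.56% in SF539 and 16.7% in SNB19, against 9.82% and 32.8% of all genes. Of 18 measured, 1 fell in SF539 (CCRL2, by 0.85, limma adjusted p = 0.049), and in SNB19 CCR1 fell by 1.95 and CXCR4 and ACKR3, receptors of CXCL12, rose by 0.41 and 1.56. The median change was -0.08 in SF539 and 0.01 in SNB19. Without SF539 siRNA#2 replicate 1 or 2 the SF539 total, counted in either direction, was larger. The CCRL2 call was lost when any 1 array was left out, except an SF539 siRNA#2 array (limma adjusted p from 0.065 to 0.194). In SNB19 ACKR3 lost its call without scramble replicate 1 or 2 or siRNA#2 replicate 1 (limma adjusted p from 0.0508 to 0.107), and CXCR4 without these or siRNA#1 replicate 2 (limma adjusted p from 0.0503 to 0.111).

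Adhesion genes changed in both directions. Of 29 measured, 2 rose and 3 fell in SF539, with a median change of -0.06, and 7 rose and 4 fell in SNB19, with a median of -0.01. That is 17.2% called in SF539 against 9.82% of all genes, and 37.9% in SNB19 against 32.8%. The medians of all genes were -0.02 and -0.01. The SF539 count of 5 was 3 without scramble replicate 1 and 10 and 8 without siRNA#2 replicates 1 and 2, and the SNB19 count of 11 was 7 and 6 without scramble replicates 1 and 2. L1CAM, a neural adhesion molecule gene of the same immunoglobulin family as VCAM1, rose by 1.50 ± 0.21 in SF539 (SE, limma adjusted p = 0.00266) and fell by 0.88 ± 0.21 in SNB19 (limma adjusted p = 0.0102). Its SF539 level was 9.28 and 10.23 with siRNA#2, 8.39 and 8.50 with siRNA#1 and 7.44 and 7.76 with scramble, and siRNA#2 exceeded siRNA#1 by 1.31 (limma adjusted p = 0.031). MSN, whose product moesin ties VCAM1 to the actin cortex, rose by 0.92 in SNB19, ICAM3 rose by 0.55 and the melanoma adhesion molecule gene MCAM fell by 1.20. ITGB2, the leukocyte integrin beta chain gene, changed by -0.57 in SF539 and -0.53 in SNB19, and THY1 changed by -0.69 in SF539. THY1 lost its call without SF539 scramble replicate 1 (limma adjusted p = 0.0851) and when its probe sets were averaged (-0.29, limma adjusted p = 0.0753). With the SF539 arrays alone THY1, ITGA4 and ITGB2 did not pass (limma adjusted p = 0.0902, 0.0729 and 0.0555). Without both SF539 siRNA#2 arrays the SF539 change of L1CAM was 0.85 (limma adjusted p = 0.00434).

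NF-kB subunits and their inhibitors gave no called gene in SF539 and decreases in SNB19. Of 11 measured, 0 passed in SF539 with limma, against 9.82% of all genes. An unadjusted p under 0.05 was found for 3 (1 higher, 2 lower), and the median change was 0.06. The SF539 count was 2 without siRNA#2 replicate 1 or 2 and 1 without SNB19 scramble replicate 1 or 2. In SNB19 5 fell (45.45% called against 32.8% of all genes), with a median of -0.23. They included IKBKG and IKBKB, subunits of the kinase that frees NF-kB, which fell by 0.47 and 0.40, the inhibitor gene NFKBIB, which fell by 0.59, and the subunit gene REL, which fell by 0.25. The REL call was lost under 5 alternatives and without any 1 of 5 SNB19 arrays, siRNA#2 replicate 1 being the exception (limma adjusted p from 0.0539 to 0.172 without an array). The SNB19 total, counted in either direction, was smaller without scramble replicate 1 or 2 or siRNA#1 replicate 1 or 2.

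Among 19 other NF-kB target genes 1 rose and 3 fell in SF539 and 2 rose and 8 fell in SNB19, with median changes of -0.13 and -0.20. That is 21.05% called in SF539 against 9.82% of all genes, and 52.6% in SNB19 against 32.8%. The SF539 count of 4 was 1 and 2 without scramble replicates 1 and 2, and 8 and 9 without siRNA#2 replicates 1 and 2. CEBPD, the gene of an inflammation-induced transcription factor, rose by 1.48 ± 0.10 in SF539 (SE, limma adjusted p = 9.23e-05) and fell by 0.51 ± 0.10 in SNB19 (limma adjusted p = 0.0024). The SNB19 difference from scramble was -1.03 with siRNA#2 and 0.0014 with siRNA#1, and the siRNAs differed by -1.03 (limma adjusted p = 0.00078). The CEBPD level was 10.59 and 10.79 with siRNA#2, 9.53 and 9.81 with siRNA#1 and 8.69 and 8.71 with scramble in SF539, and the 3 groups did not overlap. Without both SF539 siRNA#2 arrays its SF539 change was 0.97 (limma adjusted p = 0.00126). IL1B, BCL2A1 and the urokinase gene PLAU changed by -1.17, -1.44 and -0.33 in SF539. PLAU was called the other way in SNB19, with a change of 0.47 (limma adjusted p = 0.000741). In SNB19 the interferon-induced transcription factor gene IRF1 fell by 1.86, IER3 fell by 1.95, GCH1 fell by 1.36 and CFLAR, a gene of a caspase inhibitor, fell by 0.61. The IL1B call was lost without SF539 scramble replicate 1 (limma adjusted p = 0.102), the BCL2A1 call without scramble replicate 1 or 2 (limma adjusted p = 0.0893 and 0.0555) and the PLAU call without any 1 SF539 scramble or siRNA#1 array (limma adjusted p from 0.0567 to 0.112). With the SF539 arrays alone these 3 did not pass (limma adjusted p = 0.0844, 0.0629 and 0.129). Without both SF539 siRNA#2 arrays IL1B changed by -0.85 and PLAU by -0.16, and neither passed (limma adjusted p = 0.0834 and 0.195).

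Receptors and signalling genes above NF-kB and STAT were called at 11.1% in SF539, near the 9.82% of all genes, and at 51.85% in SNB19 against 32.8%. Of 27 measured, 1 rose and 2 fell in SF539 and 3 rose and 11 fell in SNB19, with median changes of 0.05 and -0.14. The SF539 count of 3 was 1 without scramble replicate 1 or 2 or siRNA#1 replicate 2 and 8 without siRNA#2 replicate 1, and the SNB19 count of 14 was 9 without scramble replicate 2. IL1R1, the interleukin 1 receptor gene, rose by 0.58 ± 0.12 in SF539 (SE, limma adjusted p = 0.0187) and fell by 1.11 ± 0.12 in SNB19 (limma adjusted p = 0.000101). TLR3, a receptor for double-stranded RNA, changed by -0.65 in SF539 and -4.04 in SNB19, and the adaptor gene MYD88 by -0.55 and -1.13. In SNB19 TLR3 averaged 3.79 with siRNA#1, below the lower quartiles of the arrays, so its size there is bounded by background. IL6ST, the shared receptor chain of the interleukin 6 family, rose by 0.67 in SNB19, or by 0.36 when its probe sets were averaged (limma adjusted p = 0.213). The IL1R1 call in SF539 was lost without scramble replicate 1 or 2 or siRNA#1 replicate 2 (limma adjusted p from 0.0576 to 0.125), and with its probe sets averaged the change was 0.24 (limma adjusted p = 0.174). Without both SF539 siRNA#2 arrays it was 0.31 (limma adjusted p = 0.104). The TLR3 call in SF539 was lost without any 1 SF539 scramble or siRNA#1 array (limma adjusted p from 0.0594 to 0.125). With the SF539 arrays alone IL1R1, TLR3 and MYD88 did not pass (limma adjusted p = 0.108, 0.062 and 0.0501).

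**Figure D3:**
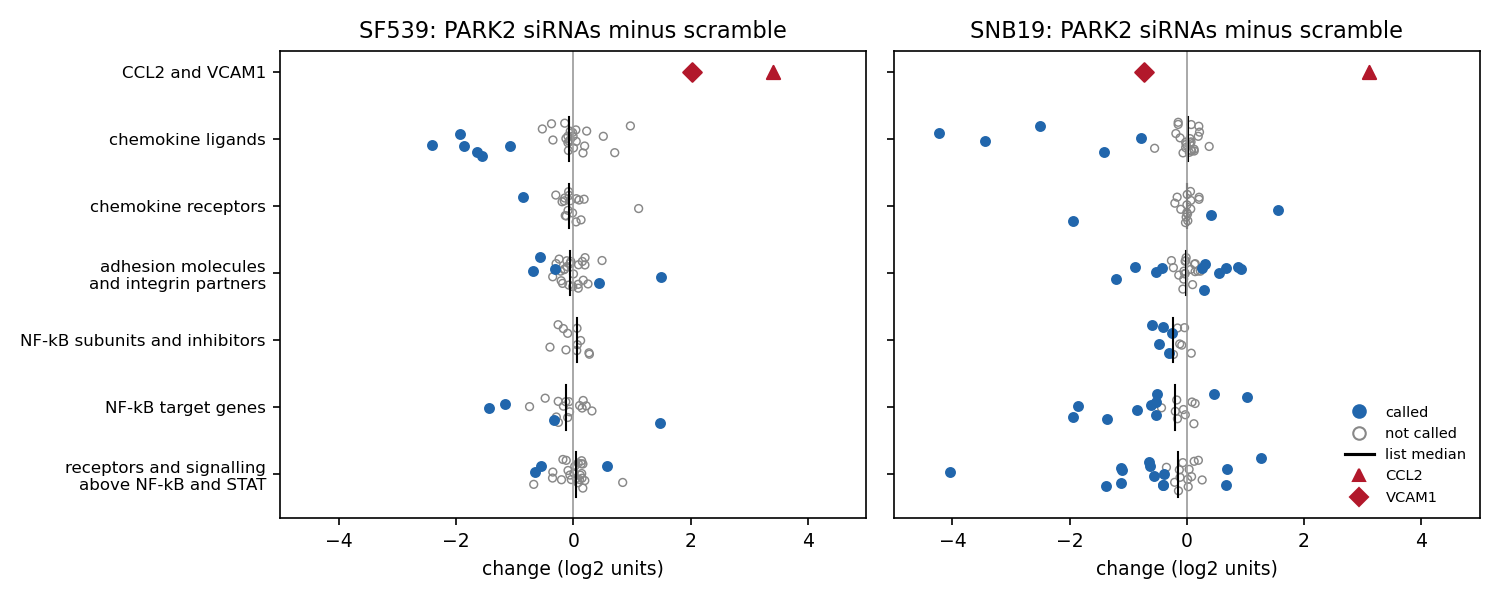
Change with the PARK2 siRNAs (mean of both siRNAs minus scramble, log2 units) of CCL2 and VCAM1 and of the measured genes of each list in SF539 (left) and SNB19 (right). Filled blue points passed the limma test, open points did not, and a bar marks the median of a list. CCL2 lies at 3.40 and 3.11, above every listed gene in both panels. It was chosen from this contrast, so its place above the lists is not a result.

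Genes whose pattern over the 12 arrays was most like that of a member were found by Pearson correlation, with the mean of each line subtracted, among genes with a centred SD of at least 0.25. These arrays share their transfection groups, and the correlation is a description. The members were chosen on their differences from scramble. The directions of change of the genes most like them, given below, follow from that choice and are no separate result. Nearest to CCL2 were ATP7A, a copper transporter gene (r = 0.982), GJA1, a gap junction connexin gene (r = 0.979), ACACA, the acetyl-CoA carboxylase gene (r = 0.965), the cadherin gene CDH11 (r = 0.959) and KDELR3, a retrieval receptor gene of the endoplasmic reticulum (r = 0.958). All 5 were higher with the siRNAs in both lines, by 0.71 to 1.23 in SF539 and 0.53 to 0.89 in SNB19, smaller sizes than the change of CCL2. Nearest to VCAM1 were PIR (r = 0.980), the potassium channel gene KCNJ2 (r = 0.967), the collagen gene COL16A1 (r = 0.961), GPNMB (r = 0.957) and the actin-linked AFAP1 (r = 0.955). KCNJ2 had a change of 1.32 in SF539 and -0.35 in SNB19, neither of which passed (limma adjusted p = 0.057 and 0.539), and the 5 genes had changes of 0.61 to 1.32 in SF539 and -0.44 to -0.08 in SNB19. CCL2 and VCAM1 correlated with r = 0.628 over the 12 arrays, and VCAM1 ranked 538 of 2100 genes by likeness to CCL2. Within a line r was 0.985 over the 6 SF539 arrays and -0.54 over the 6 SNB19 arrays, where VCAM1 was high with scramble and CCL2 was low.

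**Figure D4:**
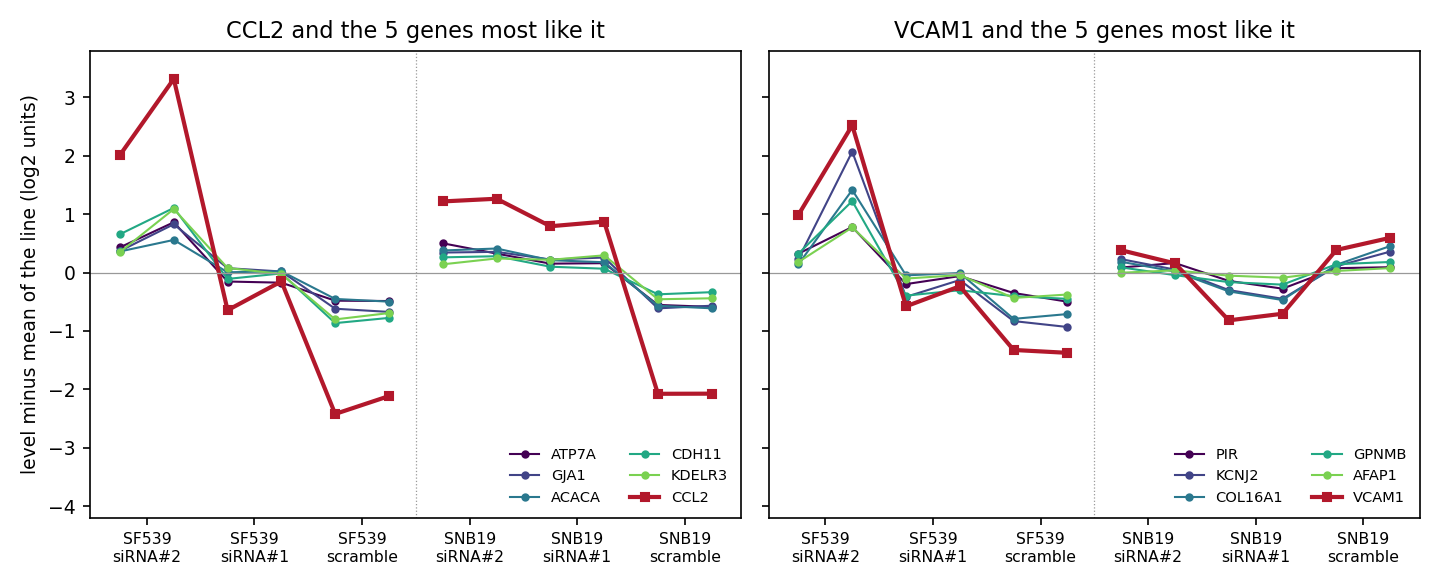
Level minus the mean of its line (log2 units) on each array, 2 arrays per group, for CCL2 (left) or VCAM1 (right) in red and the 5 genes with the highest correlation to it. The CCL2 set is lowest with scramble in both lines. The VCAM1 set is highest on SF539 siRNA#2 replicate 2 and has its lowest SNB19 values with siRNA#1. Each set was chosen by this likeness, so its pattern follows from that choice.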

How the data were processed

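RNA of 12 samples (6 groups of 2) was hybridised to Affymetrix arrays after biotin labelling, per the labels. Deposited values were log2 and ran from 2.01 to 14.1. Partek appears as a tool per the submitters' processing notes, while the authors' normalization, background correction, probe set summary and build are not given in sources used here. Of 16376 probe sets 14038 had 1 gene, 792 several (not named) and 1546 none in the gene table, and 14028 were matched by Entrez identifier to RefSeq (GRCh38.p14). Each of 8545 genes was represented by its brightest probe set, 3361 genes having several. A model with 6 group means was fitted over the 12 arrays using limma 3.58.1 (lmFit, eBayes, R 4.3.3, degrees of freedom 6 residual plus 3.65 prior). The test was two-sided, with Benjamini-Hochberg adjustment over all genes at 0.05. A run on simulated data gave each gene the same SD in every group, so it could not show the effect of the wider SF539 siRNA#2 spread. Errors of differences are standard errors.

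The genes followed, the lists and the tests were chosen with earlier results of these data known. Up to 4 called members by smallest p were named from each list in each line, with the 5 genes most like each member, chosen by that rule. Markers, the direct partners and neighbours of CCL2 and VCAM1, and values of siRNA#2 against siRNA#1 for list members were named outside it. Alternatives comprised array weights, a trended robust prior, a replicate block, 1 line alone, each array left out, median centring, quantile normalization, probe sets averaged or kept separate, and removal of the dimmest 40% of genes. An alternative without both SF539 siRNA#2 arrays was added after seeing the data. Plots used matplotlib 3.10.9.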

Additional observations from a re-analysis of the deposited data

Results flagged for a closer look

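The difference between siRNA#2 and siRNA#1 in CCL2 was 3.06 in SF539 and 0.41 in SNB19, and the test of this difference between lines gave 2.66 (limma adjusted p = 0.0169). The SF539 levels of CCL2 had been seen in earlier results of these data, so this p is not independent evidence. The change of VCAM1 against scramble ran opposite ways in the lines for the mean of both siRNAs. In SF539 every siRNA array was above every scramble array. In SNB19 the difference was -1.25 with siRNA#1 but only -0.22 with siRNA#2, whose arrays were barely apart from scramble. The share of all genes with such separated groups was not counted. The gap between the changes, 2.03 in SF539 and -0.74 in SNB19, was 2.76 and was not tested, because the gene was picked from this contrast. In SNB19 the nearest siRNA#2 and scramble arrays were equal to 2 decimals, at 8.33.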

How the results depend on the processing

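Directions of CCL2 and VCAM1 held in all contrasts under each alternative run. SF539 minus SNB19 over all arrays passed throughout, with CCL2 between -2.04 and -1.60 and VCAM1 between -1.43 and -0.92. For siRNA#2 minus siRNA#1 in SF539 CCL2 gave 2.41 to 3.72 without 1 array and 3.06 with 1 line alone (limma adjusted p = 0.149), and VCAM1 1.40 to 2.93 and 2.16 (limma adjusted p = 0.234). In SNB19 CCL2 gave 0.37 to 0.45 without 1 array and 0.41 with 1 line alone (limma adjusted p = 0.0128), while VCAM1 gave 0.92 to 1.14 without 1 array and 1.03 with 1 line alone, array weights or without both SF539 siRNA#2 arrays (limma adjusted p = 0.00319, 0.00393 and 0.00183). The difference between lines ran from 2.00 to 3.31 for CCL2 and from 0.36 to 1.90 for VCAM1 without 1 array. Against scramble in SF539, siRNA#2 gave 4.28 to 5.59 for CCL2 and 2.34 to 3.87 for VCAM1 without 1 array, and the mean of siRNAs became 1.87 and 0.94 without both siRNA#2 arrays. List members called in SF539 numbered 9 to 41 without 1 array and 5 with 1 line alone. The cause of each change was not tested.

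Counts over all genes moved too. For siRNA#2 minus siRNA#1 in SF539 the 232 genes became 356 with the dimmest 40% left out, 375 with a trended robust prior, 24 with array weights, 138 with the replicate block, 0 with 1 line alone and 3 to 2303 without 1 array. In SNB19 the 518 genes became 1427 with array weights, 1122 with 1 line alone and 134 to 1082 without 1 array. The difference between lines called 285 genes, 429 with a trended robust prior and 77 to 2203 without 1 array. Against scramble the SF539 count was 839, with 165 for 1 line alone and 371 to 1973 without 1 array, and the SNB19 count was 2806, with 1741 to 3551. Same-numbered arrays share only a number, their deviations correlating between -0.18 and 0.11 across groups of a line. With the replicate block CCL2 (3.06, limma adjusted p = 0.00343) and VCAM1 (2.16, limma adjusted p = 0.0263) still passed for siRNA#2 against siRNA#1 in SF539, and no call of either gene changed.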
